A study of Mus musculus with 6 samples.

Results

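Immediate early response genes were examined in hearts of mice that carry both DNMT3A2 and DNMT3L as transgenes. The genes were the Fos family members Fos, Fosb and Fosl2, the Jun family members Jun and Junb, and Egr1, Ier2, Ier3, Myc and Atf3. They were taken by symbol from the platform annotation, which assigned 12 of the 45101 probe sets to these 10 genes, 2 each to Fosl2 and Jun. They were 1423100_at for Fos, 1422134_at for Fosb, 1437247_at and the dimmer 1422931_at for Fosl2, 1417409_at and the dimmer 1448694_at for Jun, 1415899_at for Junb, 1417065_at for Egr1, 1416442_at for Ier2, 1419647_a_at for Ier3, 1424942_a_at for Myc and 1449363_at for Atf3. The DNMTs-Tg group held 3 mice (replicates 1, 5 and 6), obtained by mating FVB females with Ddx4-cre to males with a floxed construct. The wild-type group held 3 mice (replicates 1, 4 and 6). All mice were 8 weeks old, and RNA of each heart was hybridised to 1 Affymetrix array. Ddx4-cre acts in the germ line, and the transgenes were expressed in a wide range of somatic cells. The DNMTs-Tg mice grew slowly and died early. The promoter that drives the transgenes and the strain of the wild-type mice were not given in the sources used here. Hearts were frozen at once after removal. The study looked for genes silenced through abnormal methylation, and DNA methylation itself was not analysed here.

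Immediate early genes are transcribed within minutes of a stimulus, because the factors that switch them on, such as SRF with its ternary complex partners and CREB, are already present and are activated by MAP kinases and calcium signals. Fos and Jun proteins pair to form AP-1, which binds DNA as a dimer, while Egr1 is a zinc finger factor, Myc drives growth and ribosome production with its partner Max, and Atf3 is a stress-induced factor of the ATF/CREB family. In the heart these genes are known to respond to stretch, pressure load, adrenergic agonists, ischaemia and the handling of the tissue.

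As a check of the labels, Dnmt3l had log2 signals of 12.19 to 12.38 in DNMTs-Tg and 5.17 to 5.48 in wild-type hearts. Of the 5 probe sets of Dnmt3a, 1 differed by 1.02 (log2) and the other four by -0.28 to -0.09, and none passed the threshold of limma, a linear model test (adjusted p = 0.0563 for the first, without a filter on low values). The labels call 5 mice female and wild-type replicate 6 male, but the Y-linked gene Eif2s3y was at 9.41 to 9.52 on 5 arrays and at 3.32 in wild-type replicate 4, the array on which Xist reached 10.1. Results are therefore also given without wild-type replicate 4. Arrays had median log2 signals of 5.28 to 5.33. The heart showed its own markers, as 9 of the 10 cardiomyocyte genes examined lay above 11.7 on every array and the atrial light chain gene Myl7 between 4.81 and 5.11. The number of arrays limits the precision of every value, and nothing in the labels says whether littermates were compared.

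The promoters of 7 of the 10 genes were at hand, from RefSeq on build GRCm38.p6, each from 250 bases before to 50 after the start. Shown here are the 250 bases before the start of Fos, the model gene of the early response, of Junb and Atf3, which were higher on the same DNMTs-Tg arrays, and of Ier3, which was lower. Capitals mark the short form of the cAMP response element (TGACG), the TATA motif (TATAAA) and the GC box (GGGCGG), each on either strand. The stretches lie at chr12:85473640-85473889 on the plus strand for Fos, chr8:84978749-84978998 on the minus strand for Junb, chr1:191183334-191183583 on the minus strand for Atf3 and chr17:35821463-35821712 on the plus strand for Ier3.
Fos: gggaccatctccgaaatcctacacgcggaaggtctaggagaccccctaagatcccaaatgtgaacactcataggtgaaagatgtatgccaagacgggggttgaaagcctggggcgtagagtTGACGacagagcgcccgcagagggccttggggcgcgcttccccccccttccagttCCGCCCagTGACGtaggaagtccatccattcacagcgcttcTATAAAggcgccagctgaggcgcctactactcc
Junb: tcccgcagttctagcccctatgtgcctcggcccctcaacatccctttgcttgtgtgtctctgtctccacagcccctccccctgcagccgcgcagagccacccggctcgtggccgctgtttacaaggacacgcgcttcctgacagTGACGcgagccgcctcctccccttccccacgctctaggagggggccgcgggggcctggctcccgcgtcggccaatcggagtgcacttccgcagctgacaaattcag
Atf3: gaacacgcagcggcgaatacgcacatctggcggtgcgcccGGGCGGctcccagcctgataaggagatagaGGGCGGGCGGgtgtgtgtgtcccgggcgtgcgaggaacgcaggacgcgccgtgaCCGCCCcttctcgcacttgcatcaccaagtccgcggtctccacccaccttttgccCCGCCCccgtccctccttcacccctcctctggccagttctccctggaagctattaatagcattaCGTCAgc
Ier3: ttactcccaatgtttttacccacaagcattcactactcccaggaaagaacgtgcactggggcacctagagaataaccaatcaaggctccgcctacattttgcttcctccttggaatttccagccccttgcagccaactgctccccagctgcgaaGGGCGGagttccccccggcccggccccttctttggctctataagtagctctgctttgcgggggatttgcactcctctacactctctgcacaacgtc
Both strands of each 300-base window were searched, and a match is a description of these letters. The short element TGACG was found in 4 of 7 promoters (Fos, Fosb, Junb and Atf3), against 21.0% of the 27025 gene promoters of the table. The Fos promoter held it at 129 to 125 and 66 to 62 bases before the start, while the Ier3 promoter lacked these letters. A GC box was found in 6 of 7 (all but Junb), against 35.9% of all promoters. TATAAA was present in 2 (Fos and Junb, in Junb after the start of the gene), against 14.2%. The full element TGACGTCA, which contains TGACG, the AP-1 motif TGANTCA, the E-box CACGTG and the CArG box bound by SRF were found in 0 of 7, against 1.88%, 7.93%, 7.24% and 1.57%. Letters outside these windows were not searched, and no promoter was at hand for Egr1, Ier2 and Myc, so sites elsewhere are not excluded. The EGR motif GCGNGGGCG, which can share letters with a GC box, was found in 2 (Fosb and Fosl2), against 5.55%. CpG dinucleotides, the sites that DNMT3A2 methylates, numbered 10 in the Ier3 window, 15 in Jun, 20 in Fos, 21 in Junb, 25 in Fosb, 27 in Atf3 and 32 in Fosl2, against a median of 7 over all promoters. All 7 windows thus held more CpGs than the median promoter, and Ier3 the fewest of them.

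After a filter on low values, 13634 genes were tested, each by its brightest probe set, and 9 of the 10 early genes were among them. The exception was Fosb, an AP-1 subunit, whose probe set lay below the 40th percentile of its array on all 6 arrays. Of the 9, 0 passed limma's threshold (adjusted p of 0.05), while 735 of all genes did (5.39%), 306 of them higher (2.24%) and 429 lower (3.15%). Unadjusted p was under 0.05 for 2 of the 9, Ier3 and Myc, against 26% of all genes. The same 2 had groups that did not overlap (34.9% of all genes), Myc higher in DNMTs-Tg (17.3% of all genes were) and Ier3 lower (17.6% were). The median log2 difference was 0.35 for the 9 genes and 0.01 for all genes, with 7 of 9 above 0 against 50.8% of all genes. This median depended on single arrays. It ranged from 0.09 without DNMTs-Tg replicate 1 (6 of 9 above 0) to 0.85 without wild-type replicate 6 (7 of 9 above 0). Without wild-type replicate 1 it was 0.17, with 5 of 9 above 0. The 12 probe sets were also tested among all probe sets without the filter, and 0 passed, against 2.11% of all. The SD among DNMTs-Tg arrays had a median of 0.69 over the 9 genes and 0.19 over all genes, and among wild-type arrays 0.25 and 0.11.

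**Figure D1:**
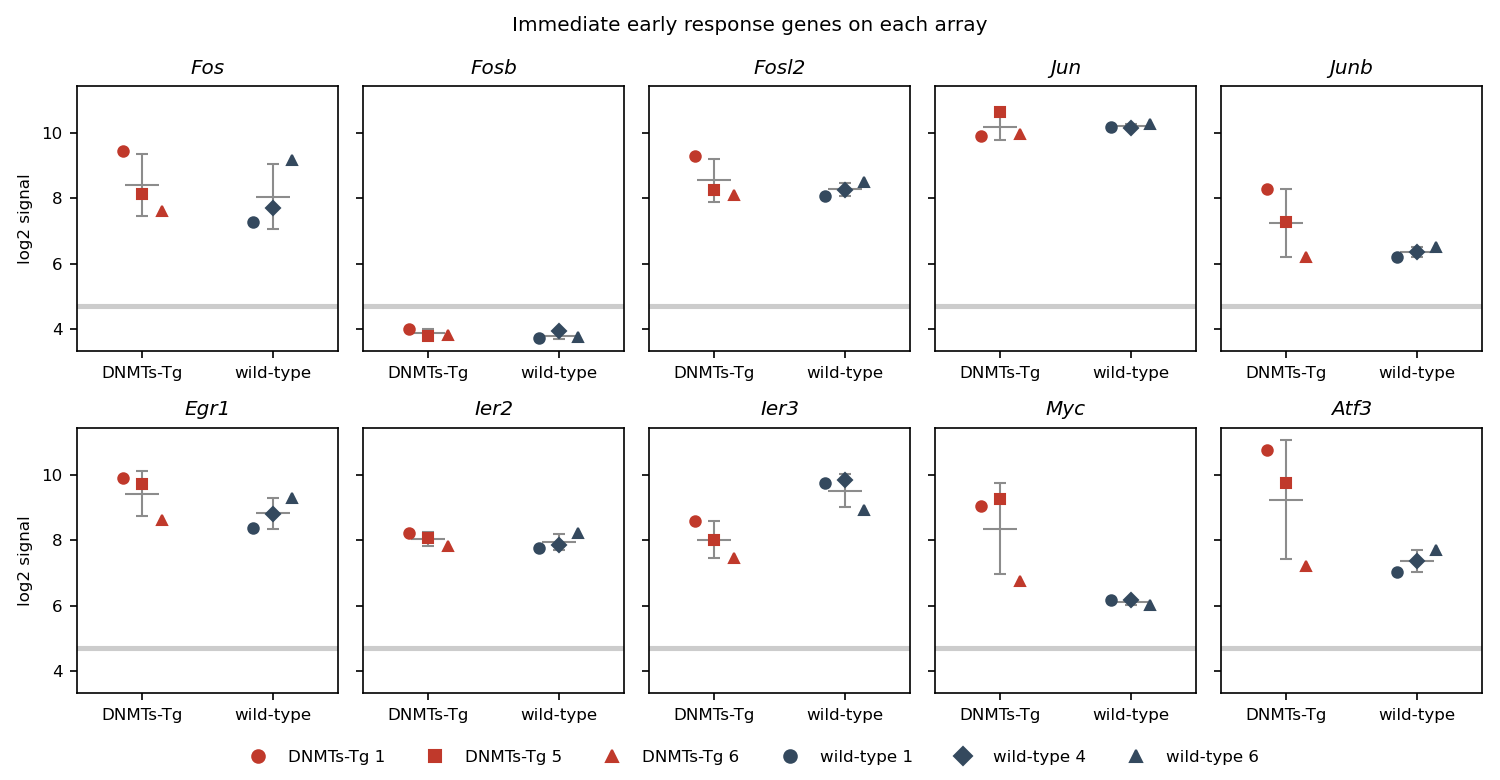
Log2 signal (vertical axis) of each of the 10 early response genes on each array, DNMTs-Tg on the left of each panel and wild-type on the right. Symbols are single arrays, grey bars the mean and SD (n = 3 per group), and the grey band spans the 40th percentiles of the 6 arrays (4.64 to 4.72). Myc is higher and Ier3 lower on every DNMTs-Tg array, Atf3, Junb and Egr1 are high in DNMTs-Tg replicates 1 and 5 but not 6, and Fosb lies below the band throughout.

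Myc showed the largest difference. Its log2 signal was 9.05, 9.27 and 6.77 in DNMTs-Tg replicates 1, 5 and 6, against 6.16, 6.16 and 6.01 in wild-type replicates 1, 4 and 6. Replicates 1 and 5 thus stood about 3 log2 units above the wild-type mean (2.94 and 3.16) and replicate 6 stood 0.65 above it. The means were 8.36 ± 1.39 in DNMTs-Tg and 6.11 ± 0.09 in wild-type hearts (SD, n = 3 each), a measured 4.76-fold difference. On the log2 scale this was 2.25 ± 0.61 (SE, 95% confidence interval 0.82 to 3.69, limma, adjusted p = 0.0787). The wild-type arrays were nearly equal, and the SD of Myc among DNMTs-Tg arrays stood at the 99.6th percentile of all genes. Without DNMTs-Tg replicate 6 the difference was 3.05 and passed (adjusted p = 0.000413, with 5.98% of genes rising in that fit). Without any other array it lay between 1.80 and 2.28 and did not pass (adjusted p of 0.118 to 0.212). Without wild-type replicate 4 it was 2.28 (adjusted p = 0.207).

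Atf3 had log2 signals of 10.78, 9.75 and 7.22 in DNMTs-Tg replicates 1, 5 and 6, against 7.02, 7.38 and 7.69 in wild-type replicates 1, 4 and 6. Replicates 1 and 5 lay 3.41 and 2.39 above the wild-type mean, whereas replicate 6 lay within the wild-type range. The means were 9.25 ± 1.83 in DNMTs-Tg and 7.37 ± 0.34 in wild-type hearts (SD, n = 3 each), and the difference of 1.89 ± 0.81 (SE, 95% confidence interval -0.02 to 3.79) did not pass (limma, adjusted p = 0.196). Few genes varied more among the DNMTs-Tg arrays, since the SD of Atf3 stood at the 99.9th percentile of all genes. The difference was 2.90 and passed without DNMTs-Tg replicate 6 (adjusted p = 0.00686), and was 1.12 without replicate 1 (adjusted p = 0.332).

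Among the AP-1 subunits, Junb followed the same arrays. Its log2 signal was 8.29, 7.28 and 6.19 in DNMTs-Tg replicates 1, 5 and 6, against 6.19, 6.34 and 6.52 in wild-type hearts. Replicates 1 and 5 lay above every wild-type array, and replicate 6 was level with the lowest of them. The difference was 0.90 ± 0.47 (log2, SE, n = 3 per group, limma, adjusted p = 0.267), and of the fits with 1 array left out it passed in the one without DNMTs-Tg replicate 6 (1.43, adjusted p = 0.0328). It was 0.39 without replicate 1 (adjusted p = 0.466).

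Fos, the partner of the Jun proteins in AP-1, overlapped between the groups. Its log2 signal was 9.45, 8.15 and 7.61 in DNMTs-Tg replicates 1, 5 and 6, against 7.27, 7.71 and 9.19 in wild-type replicates 1, 4 and 6. The highest wild-type array, replicate 6, thus lay above 2 of the 3 DNMTs-Tg arrays. Fos varied within both genotypes, with an SD of 0.95 in DNMTs-Tg and 1.01 in wild-type hearts, at the 98.5th and 99.8th percentiles of all genes. The difference was 0.35 ± 0.60 (SE, 95% confidence interval -1.07 to 1.77, adjusted p = 0.747). It turned to -0.17 without DNMTs-Tg replicate 1 and to -0.04 without wild-type replicate 1, and it was 0.92 without wild-type replicate 6, none of which passed.

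Fosl2, which encodes Fra-2, had 9.30, 8.25 and 8.11 in DNMTs-Tg replicates 1, 5 and 6 and 8.08, 8.27 and 8.49 in wild-type hearts by its brighter probe set, a difference of 0.27 (adjusted p = 0.607) that was -0.10 without DNMTs-Tg replicate 1. By its dimmer probe set the groups did not overlap, with 5.72, 5.94 and 5.91 in DNMTs-Tg and 5.46, 5.52 and 5.62 in wild-type hearts, a difference of 0.33 (adjusted p = 0.211 over all probe sets). Replicate 1 was therefore the highest DNMTs-Tg array by one probe set and the lowest by the other. For Jun the brighter probe set gave 9.91, 10.64 and 9.99 in DNMTs-Tg and 10.20, 10.18 and 10.30 in wild-type hearts. Replicate 5 was above and replicates 1 and 6 below all wild-type arrays, and the difference was -0.04 (95% confidence interval -0.50 to 0.42, adjusted p = 0.909). Its sign turned without DNMTs-Tg replicate 1 (0.092) or 6 (0.05). The other probe set of Jun differed by -0.18 (adjusted p = 0.577 over all probe sets). Fosb, dim throughout, had 3.99, 3.76 and 3.80 in DNMTs-Tg and 3.70, 3.91 and 3.74 in wild-type hearts (0.07, adjusted p = 0.792 over all probe sets).

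Egr1 had log2 signals of 9.91, 9.75 and 8.63 in DNMTs-Tg replicates 1, 5 and 6 and 8.37, 8.80 and 9.31 in wild-type replicates 1, 4 and 6. As for Atf3 and Junb, replicates 1 and 5 lay above every wild-type array and replicate 6 did not, although the wild-type arrays were farther apart. The difference was 0.60 ± 0.37 (SE, n = 3 per group, limma, adjusted p = 0.345), and 1.00 without DNMTs-Tg replicate 6 (adjusted p = 0.0606). Ier2, a nuclear early response protein, had 8.22, 8.09 and 7.81 in DNMTs-Tg and 7.76, 7.85 and 8.24 in wild-type hearts (0.09, 95% confidence interval -0.31 to 0.49, adjusted p = 0.766). It was -0.0029 without wild-type replicate 1.

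Ier3, an early gene with roles in cell survival that is induced by growth factors and NF-kappaB, went the other way. It had 8.60, 8.02 and 7.46 in DNMTs-Tg replicates 1, 5 and 6, against 9.76, 9.86 and 8.93 in wild-type replicates 1, 4 and 6. The groups did not overlap, but the gap between DNMTs-Tg replicate 1 and wild-type replicate 6 was small beside the spread. The means were 8.02 ± 0.57 in DNMTs-Tg and 9.52 ± 0.51 in wild-type hearts (SD, n = 3 each). The difference of -1.50 ± 0.34 (SE, 95% confidence interval -2.30 to -0.69) missed the threshold (limma, adjusted p = 0.0537), and it passed under quantile normalization (-1.53, adjusted p = 0.0380, with 3.34% of genes falling). It also passed without DNMTs-Tg replicate 1 (-1.78, adjusted p = 0.0194), where 4.55% of genes fell. Without any other array the adjusted p was 0.0581 to 0.184. The array of DNMTs-Tg replicate 6, which was nearest to wild-type for Myc, Atf3, Junb and Egr1, was farthest from it for Ier3.

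**Figure D2:**
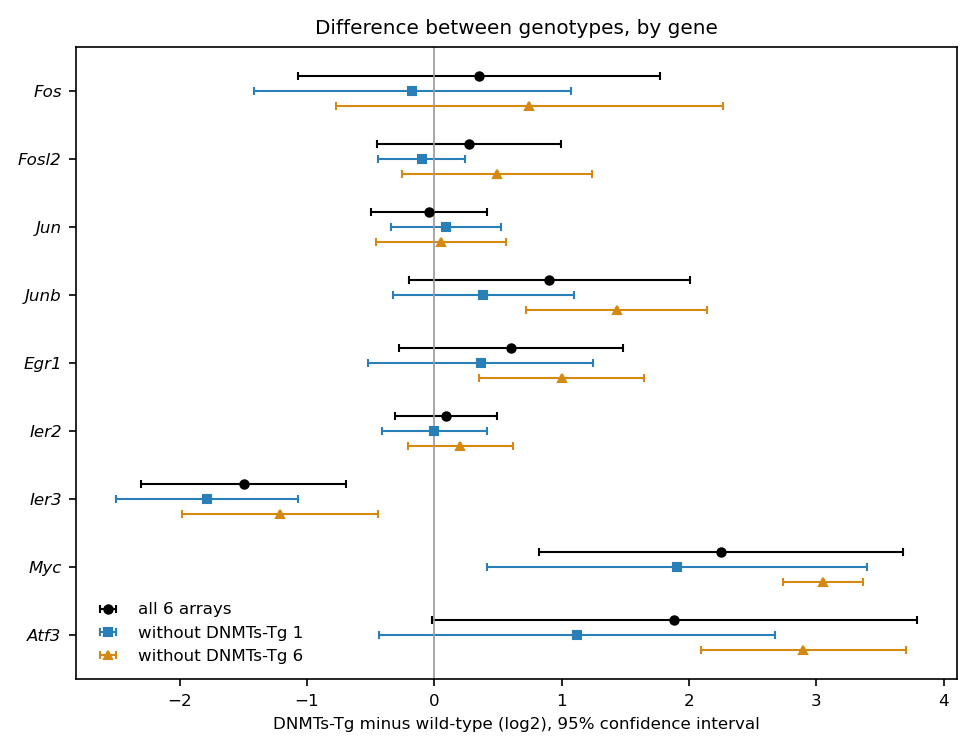
Difference in log2 signal, DNMTs-Tg minus wild-type (horizontal axis), with 95% confidence intervals from limma for the 9 early genes that passed the filter, with all 6 arrays and without DNMTs-Tg replicate 1 or 6. Without replicate 6 Myc (3.05), Atf3 (2.90), Junb (1.43) and Egr1 (1.00) move to the right with intervals above 0, and Ier3 stays left of 0 in all 3 fits.

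Over the alternatives, the share of all genes past the threshold differed widely, and the counts of early genes are read against it. With quantile normalization 1 early gene passed, against 5.51% of all genes, and with array weights 5 passed, against 35.4%. At an adjusted p threshold of 0.1 it was 2, against 12.1%, and with the label number as a block 0, against 0.00733%. Without DNMTs-Tg replicate 1 it was 1 (7.83% of all genes), without replicate 5 it was 0 (1.04%) and without replicate 6 it was 3 (11.8%). Without wild-type replicate 1, 4 or 6 it was 0 each time, against 0.902%, 1.19% and 1.48%. Without wild-type replicate 4, the array that differed in sex-linked RNA, Ier3 differed by -1.33 (adjusted p = 0.176) and Atf3 by 1.89 (adjusted p = 0.360).

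Viewed across genes, the DNMTs-Tg arrays came in the order 1, 5, 6 from high to low for 7 of the 9 genes (all but Jun and Myc), an order found in 23.7% of all genes. Wild-type replicate 6 was the highest wild-type array for 7 of 9 (all but Ier3 and Myc), against 33.2% of all genes. Replicates 1 and 5 above every wild-type array, with replicate 6 not above them, was seen for 3 of 9 (Junb, Egr1 and Atf3), against 7.88% of genes. These orders were picked after the values were seen, the genes share their arrays, and no test was made of them. By the likeness of their deviations from the group means (Pearson's r over 6 arrays), the genes most similar to the mean of the 9 were Sorbs2, an actin-associated adaptor, Slc16a6, a monocarboxylate transporter family member, Luzp1, the peptidase gene Thop1 and the peroxisomal carrier gene Slc25a17, with r from 0.997 to 0.998. These are the 5 highest among all genes tested, so high values follow from the search. Of them Slc16a6 rose (8.98, 8.48 and 7.57 in DNMTs-Tg replicates 1, 5 and 6 against 6.53, 6.61 and 6.91 in wild-type hearts, 1.66, adjusted p = 0.0381), and it did not pass without DNMTs-Tg replicate 5 or without any 1 wild-type array (adjusted p of 0.108 to 0.153).

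Other immediate early genes were read from a list of 44, of which 42 were measured. Of these 1 rose and 0 fell, against 2.24% and 3.15% of all genes, so that the count of calls was near the background. Above 0 lay 29 and below it 13, against 50.8% of all genes above 0, and the median difference was 0.14 beside 0.01 for all genes. At unadjusted p under 0.05 were 9 of the 42, against 26% of all genes. The gene that rose was Plk2, a polo-like kinase induced by serum and by p53, by 0.99 ± 0.18 (log2, SE, adjusted p = 0.0289), with 9.68, 9.31 and 9.15 in DNMTs-Tg replicates 1, 5 and 6 against 8.61, 8.12 and 8.44 in wild-type hearts. With the mean of its kept probe sets the difference was 0.29 and did not pass (adjusted p = 0.159), and it also failed without DNMTs-Tg replicate 5 or any 1 wild-type array (0.0830 to 0.104). The mean level of the list was 9.47, 9.04 and 8.69 in DNMTs-Tg replicates 1, 5 and 6, against 8.68 to 8.86 in wild-type hearts, so that replicates 1 and 5 stood above all wild-type arrays and replicate 6 among them.

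**Figure D3:**
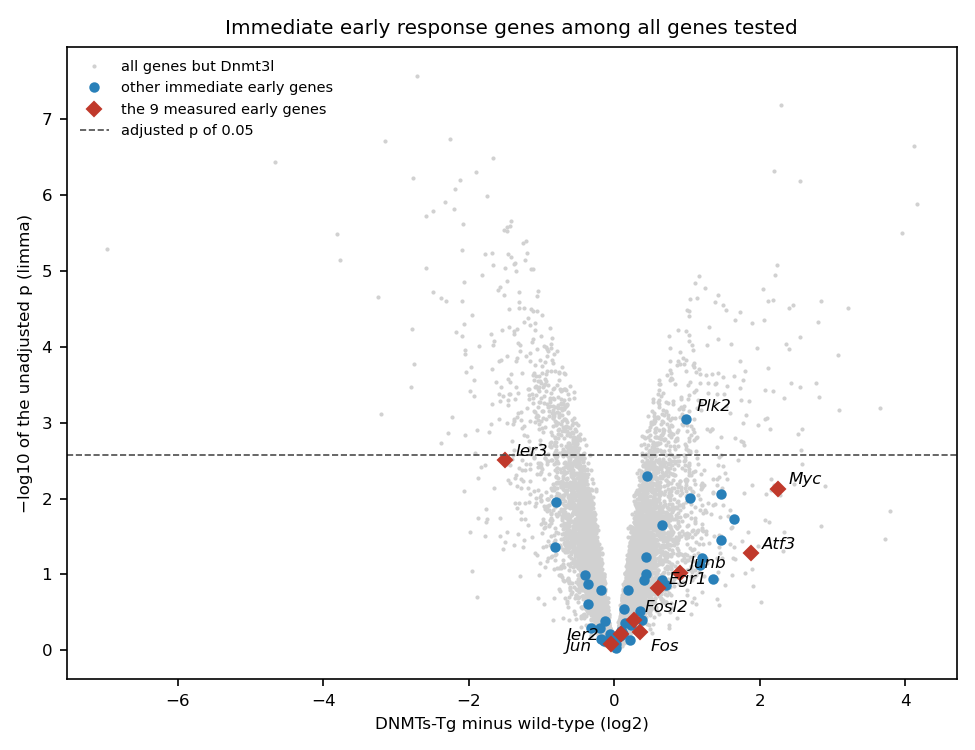
Difference in log2 signal (horizontal axis) against the negative log10 of limma's unadjusted p (vertical axis) for all genes tested but Dnmt3l, with the 9 measured early genes and the list of other immediate early genes marked. All 9 lie below the dashed line of an adjusted p of 0.05, Ier3 just under it, and Plk2 is the 1 gene of the other list above it.

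The signalling genes upstream, such as SRF, the ternary complex factors, CREB and the MAP kinases, had 0 of 20 measured members past the threshold, against 5.39% of all genes. At unadjusted p under 0.05 were 6, near the background of 26%. Map2k6, a kinase of p38, was nearest (-0.95, adjusted p = 0.0525). Next was Map2k3, another kinase of p38 (0.51, adjusted p = 0.0689), so that the pair differed in opposite directions. Under quantile normalization Map2k6 passed (limma, adjusted p = 0.04686, 5.51% of all genes passed). Without DNMTs-Tg replicate 6 Map2k6 (0.02755) and Map2k3 (0.02805) passed, as did 11.8% of all genes. Both also passed with array weights (35.4% of all genes) and at a threshold of 0.1 (12.1%). Among the MAP kinase phosphatases, which shut the signal off, 0 of 11 were past the threshold (5.39% of all genes) and 3 at unadjusted p under 0.05 (26% of all genes), with Dusp7 at -0.80 and Dusp5 at 0.42 (adjusted p = 0.145 for each). Among 12 further AP-1 partner genes 1 rose (2.24% of all genes did), the small Maf gene Mafk (1.12, adjusted p = 0.0473). It did not pass with arrays set to a common median (0.0525), with no filter (0.0515), without DNMTs-Tg replicate 5 or without any 1 wild-type array (0.138 to 0.168). Of the 12 AP-1 partner genes 4 were at unadjusted p under 0.05 (26% of all genes), with 5 above 0 and 7 below it.

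Of 16 genes known as Myc targets 1 rose and 2 fell, against 2.24% and 3.15% of all genes, with a median difference of 0.19. Above 0 lay 11 of these targets and below it 5, and 7 were at unadjusted p under 0.05 (26% of all genes). Odc1, the first enzyme of polyamine synthesis, rose by 0.83 (adjusted p = 0.0434), while Ccnd2, which encodes cyclin D2, fell by 2.12 (adjusted p = 0.000689) and Cad, the enzyme that opens pyrimidine synthesis, fell by 0.81 (adjusted p = 0.0295). Ccnd2 had 8.73, 8.69 and 8.69 in DNMTs-Tg hearts against 11.04, 10.85 and 10.59 in wild-type hearts, with an SD of 0.02 among DNMTs-Tg arrays, and it passed with any 1 array left out. Odc1 and Cad did not pass without DNMTs-Tg replicate 5 or without any 1 wild-type array (0.129 to 0.151 and 0.0983 to 0.113), and Odc1 was just over the threshold with arrays set to a common median. In the network of Myc partners and antagonists 0 of 14 passed (5.39% of all genes did), with 2 at unadjusted p under 0.05 (26% of all genes), Mycbp (-0.39, adjusted p = 0.120) and Mycbp2 (0.37, adjusted p = 0.144). Of 14 measured genes known as AP-1 or Egr targets 1 rose (2.24% of all genes did), the hyaluronan receptor gene Cd44. It had 11.22, 9.80 and 9.30 in DNMTs-Tg replicates 1, 5 and 6 against 6.94, 7.32 and 7.58 in wild-type hearts (2.82, adjusted p = 0.0209), and it did not pass without DNMTs-Tg replicate 5 or without any 1 wild-type array (0.0721 to 0.0983). Timp1 (2.90), Hmox1 (1.78) and Ccl2 (1.61) did not pass, but their groups did not overlap (17.3% of all genes were higher without overlap). Of the 14 genes 11 lay above 0 and 3 below it, with a median difference of 0.06. At unadjusted p under 0.05 were 4 (26% of all genes). The list stood at 1.05, 0.55 and 0.33 above the wild-type mean in DNMTs-Tg replicates 1, 5 and 6. Wild-type arrays stood at -0.09 to 0.07.

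Markers of other cell types were higher on some of these arrays. Of all genes 5.39% passed the threshold (2.24% higher and 3.15% lower). With lists of 6 to 13 genes a count of 0 is near that share. In RNA of heart tissue a change in the number of cells of a type and a change in RNA per cell cannot be told apart. The 13 measured macrophage and monocyte markers had a mean level of 7.96 to 9.44 in DNMTs-Tg and 7.77 to 8.02 in wild-type hearts, with 0 past the threshold and Itgam not measured. Relative to the wild-type mean DNMTs-Tg replicate 1 stood at 1.54, replicate 5 at 0.06 and replicate 6 at 0.12. The 10 fibroblast markers were at 1.20 in DNMTs-Tg replicate 1, 0.28 in replicate 5 and 0.17 in replicate 6, against -0.15 to 0.26 in wild-type hearts (0 past the threshold). Of 6 measured neutrophil markers 2 rose (2.24% of all genes did), S100a8 by 1.86 (adjusted p = 0.0221) and S100a9 by 2.14 (adjusted p = 0.0336). The neutrophil list stood at 0.90, 0.69 and 0.70 in DNMTs-Tg replicates 1, 5 and 6 and at -0.23 to 0.29 in wild-type hearts. The other neutrophil differences were smaller and did not pass, at 0.43 for Csf3r, 0.26 for Ltf, 0.09 for Elane and -0.21 for Ngp. The median difference of the list was 0.34. Mpo, Cxcr2 and Retnlg of that list were not measured. The 10 cardiomyocyte markers were at -0.33, -0.08 and -0.03 in DNMTs-Tg replicates 1, 5 and 6, against -0.02 to 0.02 in wild-type hearts. Among them 0 passed the threshold and 10 of 10 lay below 0, while 50.8% of all genes lay above 0. Myl7 of this list was dim, at 4.81 to 5.11. Endothelial markers stood at 0.04 to 0.25 in DNMTs-Tg and -0.02 to 0.03 in wild-type hearts. Vwf was the 1 of 9 that rose (1.39, adjusted p = 0.0177), against 2.24% of all genes. The other endothelial differences were smaller and did not pass, and 3 were below 0 (Tek -0.24, Emcn -0.19 and Kdr -0.11). The median difference of the list was 0.04, with 6 of 9 above 0. Smooth muscle and pericyte markers stood at -0.13 to 0.17 in DNMTs-Tg and -0.23 to 0.12 in wild-type hearts (0 of 9 past the threshold). Erythrocyte and platelet markers stood at -1.08 to 0.93 in DNMTs-Tg and -0.35 to 0.33 in wild-type hearts (0 of 6). For Gapdh, the 3' probe set minus the 5' probe set (log2), a measure of RNA integrity, was 0.75, 0.53 and 0.71 in DNMTs-Tg and 0.50, 0.40 and 0.40 in wild-type hearts. The same measure for Actb overlapped between the groups, at 1.05, 0.91 and 1.40 in DNMTs-Tg and 1.25, 1.09 and 1.12 in wild-type hearts. The part of these markers and of RNA integrity in the values of the early genes was not tested.

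**Figure D4:**
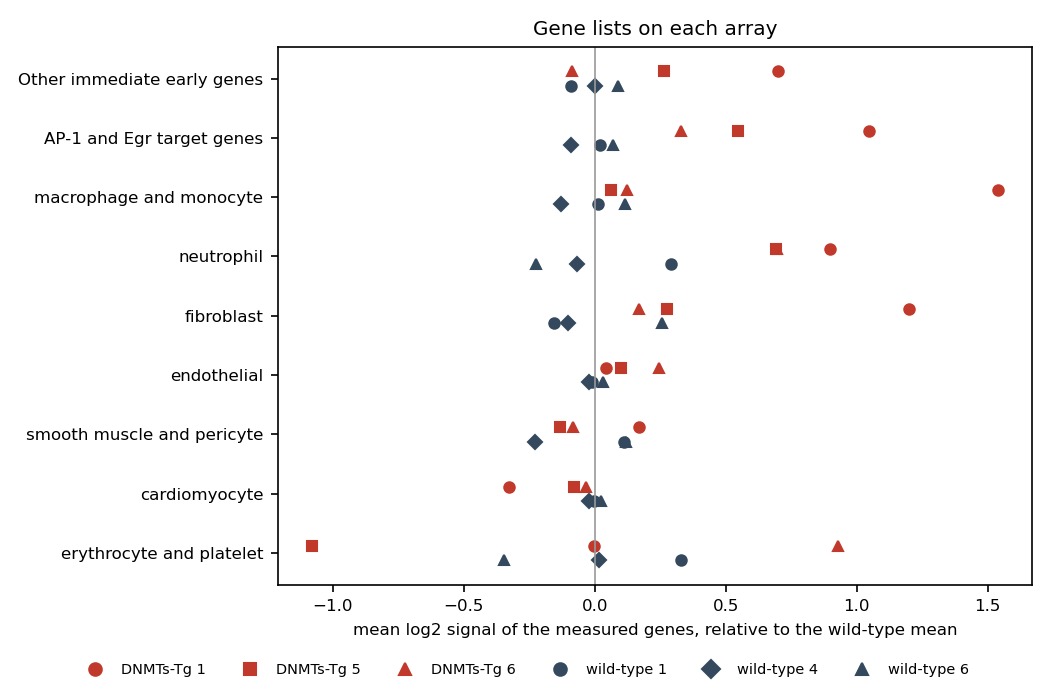
Mean log2 signal of the measured genes of each list on each array, relative to the wild-type mean (horizontal axis). Red symbols are the 3 DNMTs-Tg arrays and dark symbols the 3 wild-type arrays. Replicate 1 stands apart for macrophage (1.54) and fibroblast (1.20) markers, while other immediate early genes stand at 0.70, 0.26 and -0.09 in replicates 1, 5 and 6.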

How the data were processed

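Heart RNA of 3 DNMTs-Tg and 3 wild-type mice was hybridised to Affymetrix arrays after a single cycle of cDNA synthesis and in vitro transcription, per the labels' protocols. The values the authors deposited, 1 for each probe set on each array, were taken as log2 signals because all values lay between 2.06 and 14.7 with medians of 5.28 to 5.33. Background correction, normalization and software were not given in the sources used here, and no detection calls were used.

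Values were analysed as deposited. Symbols came from the platform annotation, updated through gene identifiers to GRCm38.p6 (34754 of 34958 probe sets with 1 symbol). Control probe sets were left out. Probe sets above the 40th percentile of an array on 3 or more arrays were kept (27319 of 45037). A gene was represented by its brightest kept probe set. Groups were compared with limma 3.58.1 in R 4.3.3 (lmFit, eBayes with trend, 2-sided), adjusted by the Benjamini-Hochberg method over 13634 genes. Member probe sets were also tested among all 45037 probe sets without the filter. The steps were tested on simulated data.

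The genes and lists were chosen with earlier results of these data known. Named from each list were the genes past the threshold, or else the 2 with the smallest p, and the 5 genes most like the mean of the early genes. Others were named outside this rule, after values were seen. They were Timp1, Hmox1 and Ccl2, whose groups did not overlap, the genes of the array pattern and some cell type markers. Alternatives covered normalization, centring, filter, probe set choice, variance model, array weights, replicate block, threshold and each array left out. Groups share the label numbers 1 and 6, but nothing says that these pair the mice. P-values measure the spread between mice, which may include technical spread.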

Additional observations from a re-analysis of the deposited data

How the results depend on the processing

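With 0 early genes past the threshold in the fit reported, 1 passed under quantile normalization (Ier3), 2 at an adjusted p threshold of 0.1 (Ier3 and Myc, where 12.1% of genes passed) and 5 with array weights (Junb, Egr1, Ier3, Myc and Atf3). The array weights gave DNMTs-Tg replicate 5 a weight of 5.63 and replicate 1 one of 0.203, their estimation did not converge, and 4822 genes (35.4%) passed. With 1 array left out, 0 to 3 early genes passed, 1 without DNMTs-Tg replicate 1 (Ier3) and 3 without DNMTs-Tg replicate 6 (Junb, Myc and Atf3), and likewise 0 to 3 of their 12 probe sets when all probe sets were tested. Of all probe sets 3.14% passed without DNMTs-Tg replicate 1, 0.42% without replicate 5, 5.39% without replicate 6 and 0.371% to 0.586% without 1 wild-type array. Over all genes 735 passed, 1655 at the threshold of 0.1, and 123 to 1604 with 1 array left out, fewest without wild-type replicate 1 and most without DNMTs-Tg replicate 6. They were 142 without DNMTs-Tg replicate 5, 162 without wild-type replicate 4 and 202 without wild-type replicate 6. With the label number as a replicate block, which leaves few degrees of freedom, 1 gene passed and 0 early genes did. DNMTs-Tg replicate 5 and wild-type replicate 4 shared their number with no other array, so they did not inform the difference in that fit. Arrays of the same number did not deviate together (r of -0.05 for number 1 and -0.08 for number 6), so the numbers were not taken as pairs. Direction turned for some small differences. With 1 array left out, Fos ranged from -0.17 to 0.92 (also -0.04 without wild-type replicate 1), Fosl2 from -0.10 to 0.49, Jun from -0.27 to 0.092 (also 0.05 without DNMTs-Tg replicate 6), Ier2 from -0.0029 to 0.24 and Thop1 from -0.045 to 0.26. Jun was 0.36 with array weights and Thop1 -0.033 with the mean of probe sets. The cause was not tested. Junb, Egr1, Ier3, Myc and Atf3 kept their direction under every alternative run.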

Other observations

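The array pattern of Junb, Egr1 and Atf3, with DNMTs-Tg replicates 1 and 5 above every wild-type array and replicate 6 not, was also counted among the 42 measured other immediate early genes. It was found in 10 of them, Btg2, Ccn1, Ccn2, Gadd45g, Nfkbiz, Plk3, Ptgs2, Sgk1, Sik1 and Socs3, against 7.88% of all genes, and none of the 10 passed limma's threshold in the comparison of the genotypes. By definition the pattern leaves the groups overlapping, which works against a call, so the lack of calls adds nothing about these genes. Genes with this pattern numbered 3 of 12 AP-1 partner genes, 4 of 16 Myc targets, 2 of 11 MAP kinase phosphatases, 3 of 20 upstream regulators, 0 of 14 genes of the Myc network and 0 of 14 AP-1 and Egr targets. No test was made of these counts. The 10 genes are named because they fit a pattern picked after values were seen. The pattern sets no margin, and some genes met it narrowly. Plk3 had 6.25 and 6.32 in DNMTs-Tg replicates 1 and 5 against at most 6.23 in wild-type hearts. Ccn2 had 11.55 in DNMTs-Tg replicate 6 against at most 11.63 in wild-type hearts. The 3 genes shown next are examples and do not stand for all 10. Btg2, an antiproliferative gene, had log2 signals of 11.35, 10.79 and 9.06 in DNMTs-Tg replicates 1, 5 and 6 against 8.86, 9.23 and 9.50 in wild-type hearts. Gadd45g, a stress gene, had 9.73, 9.41 and 7.36 in DNMTs-Tg against 7.85, 7.51 and 7.59 in wild-type hearts. Ccn1, a matricellular protein gene, had 11.01, 11.14 and 9.63 in DNMTs-Tg against 9.92, 9.80 and 10.07 in wild-type hearts. That DNMTs-Tg replicate 6 did not lie above the wild-type range follows from the definition of the pattern.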
